A study of Arabidopsis thaliana with 21 samples.

Results

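Root tips of Arabidopsis thaliana accession Col-0 that had been heated were compared with those of both unheated Col-0 groups of the same series, and the genes described here are those that differed from each unheated group in the same direction. Of 19809 genes tested, 243 met that rule, 138 higher and 105 lower in the heated tips. The groups compared held 9 of the 21 RNA-seq libraries of the series, and all 21 entered the fit. The heated plants spent 40 min at 37 °C, followed by a recovery of 80 min. The estradiol-treated Col-0 plants received 5 µM estradiol for 120 min, and the mock-treated Col-0 plants received the solvent, ethanol by the series' design text, for 20 min. No Col-0 group carried a transgene. All plants were 5 days old, each library came from 50 root tips of 1 to 2 mm, so every library pools tissue of many plants, and each group had 3 libraries that the labels call biological replicates. Heated and estradiol-treated Col-0 were the controls of AXR3-1 lines, and mock-treated Col-0 was the control of a short auxin experiment. Treatment, its length and the experiment thus cannot be told apart in a comparison with 1 unheated group. The rule of both groups does not fully separate them either. The labels give no unheated Col-0 group of the heat experiment, so anything else particular to that experiment could also pass the rule. The time of day of sampling is not given in the labels.

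As background, heat unfolds proteins, and cells answer with heat shock transcription factors that bind heat shock elements, inverted repeats of the bases GAA upstream of chaperone genes. Small heat shock proteins bind unfolding proteins and keep them soluble, the HSP70 and HSP60 machines refold them with co-chaperones, and HSP101 pulls aggregates apart. In Arabidopsis the small heat shock proteins form several classes, which reside in the cytosol, the endoplasmic reticulum, mitochondria or plastids, and most are barely transcribed without stress.

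The promoters of the kept genes were searched for heat shock elements, since the element is the part of these genes that the heat shock factors are known to bind. The window ran from 250 bases before to 50 bases after the annotated start (RefSeq annotation of build TAIR10.1). The 3-unit element was spelled GAANNTTCNNGAA or TTCNNGAANNTTC, the 2-unit element GAANNTTC or TTCNNGAA, and both strands were covered by these spellings; each 3-unit match also contains 2-unit matches. A 3-unit match was present in 4 of the 138 genes that were higher (2.9%), in 0 of the 105 that were lower and in 111 of 19743 tested genes with a window (0.562%). The 4 genes were HSP17.4-CI and HSP17.6C-CI, 2 class I small heat shock proteins, GOLS1, a galactinol synthase, and HOP3, a co-chaperone that links HSP70 to HSP90. Their windows are shown with the matches in capitals, together with those of APX2, an ascorbate peroxidase with a pair of separate 2-unit matches, and of HSP22, the gene with the largest rise, in which neither spelling occurred.
HSP17.4-CI promoter, chr3:16984818-16985117, minus strand: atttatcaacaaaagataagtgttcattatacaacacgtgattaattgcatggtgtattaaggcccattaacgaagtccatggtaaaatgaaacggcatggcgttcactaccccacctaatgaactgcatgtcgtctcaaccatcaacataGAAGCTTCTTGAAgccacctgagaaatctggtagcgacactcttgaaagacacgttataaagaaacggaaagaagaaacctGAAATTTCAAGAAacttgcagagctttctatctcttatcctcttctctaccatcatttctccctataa
HSP17.6C-CI promoter, chr1:19980049-19980348, plus strand: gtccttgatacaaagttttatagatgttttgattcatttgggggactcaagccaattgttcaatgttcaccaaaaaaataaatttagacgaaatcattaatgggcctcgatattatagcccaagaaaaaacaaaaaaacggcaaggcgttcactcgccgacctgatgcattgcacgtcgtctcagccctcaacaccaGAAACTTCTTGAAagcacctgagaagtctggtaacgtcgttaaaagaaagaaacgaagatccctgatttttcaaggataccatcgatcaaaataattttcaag
GOLS1 promoter, chr2:19370429-19370728, minus strand: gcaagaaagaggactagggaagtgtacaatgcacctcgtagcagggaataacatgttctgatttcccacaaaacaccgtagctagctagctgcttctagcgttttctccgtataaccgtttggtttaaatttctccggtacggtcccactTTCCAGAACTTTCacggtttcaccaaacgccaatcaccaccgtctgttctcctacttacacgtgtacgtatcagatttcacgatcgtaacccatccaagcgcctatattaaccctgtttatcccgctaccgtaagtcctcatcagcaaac
HOP3 promoter, chr4:7341314-7341613, minus strand: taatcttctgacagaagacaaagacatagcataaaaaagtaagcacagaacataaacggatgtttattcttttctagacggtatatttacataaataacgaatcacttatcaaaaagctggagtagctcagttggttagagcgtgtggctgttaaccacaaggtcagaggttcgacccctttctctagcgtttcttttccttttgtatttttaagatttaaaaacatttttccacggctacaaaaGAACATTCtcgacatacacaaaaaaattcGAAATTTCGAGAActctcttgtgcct
APX2 promoter, chr3:2955906-2956205, plus strand: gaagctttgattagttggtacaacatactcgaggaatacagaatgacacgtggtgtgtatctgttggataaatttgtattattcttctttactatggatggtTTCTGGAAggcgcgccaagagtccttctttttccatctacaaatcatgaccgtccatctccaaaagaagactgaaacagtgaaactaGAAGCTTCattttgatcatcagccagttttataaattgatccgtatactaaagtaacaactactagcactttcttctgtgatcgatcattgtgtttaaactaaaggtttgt
HSP22 promoter, chr4:6370088-6370387, plus strand: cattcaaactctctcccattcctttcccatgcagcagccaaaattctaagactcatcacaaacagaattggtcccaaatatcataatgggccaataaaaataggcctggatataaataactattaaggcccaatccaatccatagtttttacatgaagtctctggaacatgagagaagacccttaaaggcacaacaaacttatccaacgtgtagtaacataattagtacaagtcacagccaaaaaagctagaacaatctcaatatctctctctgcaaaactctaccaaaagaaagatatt

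The first match in HSP17.4-CI began 99 bases before the annotated start and the second 18 bases before it, and the single 3-unit matches of HSP17.6C-CI and GOLS1 began 53 and 100 bases before it. In HOP3 the 3-unit match began 24 bases after the annotated start. The 2-unit element was present in 39 of the 138 genes that were higher (28.3%), in 34 of the 105 that were lower (32.4%) and in 3735 of the 19743 tested genes (18.9%). Among the 26 genes that were at least 8-fold higher in both contrasts it was present in 12 (46.2%), and among the 11 small heat shock protein genes kept higher in 6 (54.5%). The W-box core TTGAC or its reverse GTCAA, the short motif that WRKY factors are known to bind, was present in 65 of 138 higher genes (47.1%), 62 of 105 lower genes (59%) and 10108 of all 19743 (51.2%). These shares describe letters in a short window and are not tests of binding; the windows of HSP18.2 and HSP17.6-CII, whose rises come next to that of HSP22, held neither heat shock element spelling.

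Each of the 9 libraries held 17684906 to 23877241 estimated reads. Values are given as CPM, read counts scaled to library size after TMM adjustment, for replicates 1, 2 and 3 in that order, changes are log2 ratios of heated over unheated libraries with their standard error, and p-values are those of edgeR's quasi-likelihood test, adjusted by the Benjamini-Hochberg method over all 19809 genes, with a call at an adjusted p under 0.05. Markers of root hair, non-hair epidermis, endodermis, xylem, phloem, root cap and green tissue comprised 67 genes, of which 65 were tested, none was kept and 4 were called in either contrast. No marker was at 0 in all 9 libraries. In TPM, which also divide by transcript length, the summed green tissue markers, genes of photosynthetic shoot cells, were at 29.53 to 45.27 TPM in heated, 30.87 to 33.56 TPM in estradiol-treated and 25.01 to 40.21 TPM in mock-treated tips. The root hair markers, which mark older epidermis, summed to 566.9 to 907.2 TPM in heated, 496.4 to 766.5 TPM in estradiol-treated and 474.3 to 934.4 TPM in mock-treated tips. One library stood apart from its group. In heated root tips of HS:AXR3-1, a line used further on, small heat shock proteins summed to 621.3 CPM in replicate 1. They summed to 8542 and 21670 CPM in replicates 2 and 3. Heated Col-0 had 10260, 11570 and 14110 CPM of them, estradiol-treated Col-0 73.71, 60.01 and 137.8 CPM, and mock-treated Col-0 48.51, 44.88 and 53.6 CPM. HS:AXR3-1 replicate 1 is in neither group of the Col-0 contrasts. It enters them through the shared scaling, expression filter and estimate of the spread, and the counts without it are given with that line. Among the unheated Col-0 libraries, estradiol replicate 3 had the highest level of these proteins, at 137.8 CPM. Without it 33 genes were kept higher and 31 lower, within the range given below for leaving out any estradiol library. In whole tips, a change in the number of cells of a type and a change in RNA per cell cannot be told apart.

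Heated Col-0 differed from mock-treated Col-0 in 664 genes that were higher (3.35% of those tested) and 842 that were lower (4.25%). Against estradiol-treated Col-0, 170 genes were higher (0.858%) and 136 lower (0.687%). The kept genes, 0.697% of those tested for the higher and 0.530% for the lower ones, were called in both contrasts, and 0 genes were called against both in opposite directions. Both contrasts use the same heated libraries and are not independent of each other. Between the unheated groups themselves, estradiol-treated tips were higher than mock-treated tips in 39 genes (0.197%) and lower in 160 (0.808%). Of the 138 genes kept higher 1 was also called between the unheated groups, and of the 105 kept lower 5 were. The rule chose the genes on these same unheated libraries, so nothing is read from these counts.

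The smaller of both log2 changes had a median of 1.37 for the genes kept higher and of -0.99 for the genes kept lower, while the median change of all tested genes was -0.004 against mock and -0.012 against estradiol. At least 2-fold changes in both contrasts were seen in 92 higher and 52 lower genes, and at least 8-fold changes in 26 higher and 4 lower ones. In all 138 higher genes the 3 heated libraries lay above the 6 unheated ones, as they did in 1490 (7.52%) of all tested genes, and in 103 of the 105 lower genes they lay below, as in 1275 (6.44%) of all. The rule chose the genes on these same libraries, so nothing is read from this. The 10 largest rises and the 10 largest falls were named on condition that these libraries did not overlap. Close to the threshold, the kept genes HSP60-3A, a mitochondrial chaperonin, and APC1, a mitochondrial carrier, had a larger adjusted p of 0.0497 and 0.0492, and the genes CUL2 and PBC2 just missed it at 0.0503. A further 526 higher and 737 lower genes were called against mock alone, and 32 and 31 against estradiol alone. The counts lean on each library: leaving out 1 heated library left 38 to 62 higher and 24 to 57 lower genes, leaving out 1 estradiol library 29 to 36 and 31 to 33, and leaving out 1 mock library 79 to 93 and 52 to 77.

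**Figure D1:**
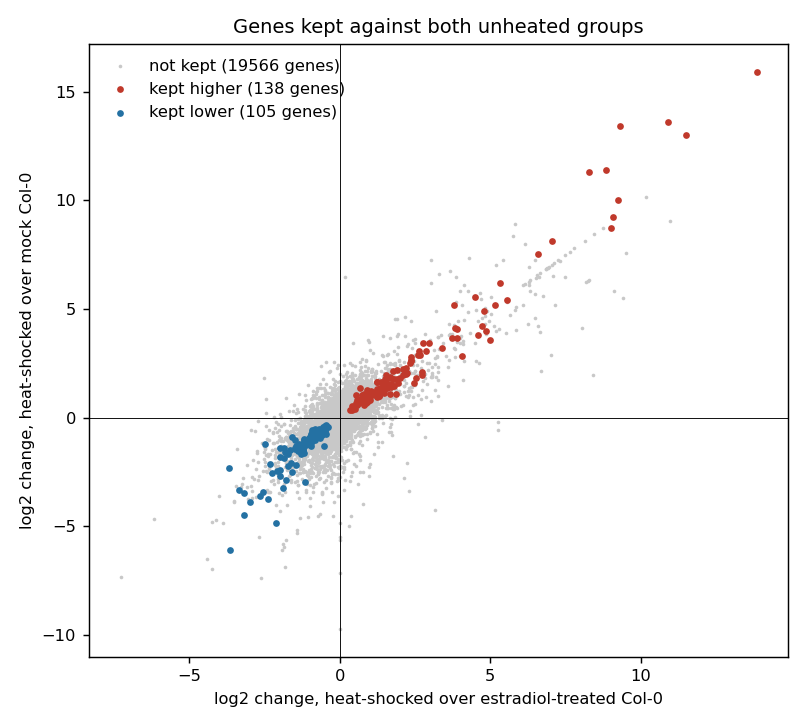
Log2 change of every tested gene in heated Col-0 over mock-treated Col-0 and over estradiol-treated Col-0, with the kept genes in colour (heated over mock on the vertical axis, heated over estradiol on the horizontal one). The 138 genes kept higher reach far further from 0 than the 105 kept lower, and both axes share the heated libraries.

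Of the 10 named genes with the largest rises, 8 encode small heat shock proteins. HSP22, the small heat shock protein of the endoplasmic reticulum, had 1273, 1365 and 1655 CPM in heated tips, against 0, 0 and 0.268 CPM in estradiol-treated tips and 0, 0.0509 and 0 CPM in mock-treated tips. The heated libraries held 88274 reads of it, and the mock libraries 1 read and the estradiol libraries 6. From the summed counts the ratio of heated to mock libraries was 83300, with a 95% interval of 14900 to 3290000 that covers counting error only; the fitted change over estradiol was 13.84 ± 1.72 (SE, adjusted p = 0.00111).

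HSP18.2, a cytosolic class I member, had 3156, 2464 and 3066 CPM in heated tips, against 0.793, 0.753 and 1.43 CPM in estradiol-treated tips and 0.194, 0.0509 and 0.812 CPM in mock-treated tips. Its log2 change was 11.50 ± 1.41 over estradiol (adjusted p = 0.000529) and 13.02 ± 1.54 over mock (adjusted p = 7.01e-05). Every unheated library was near or under 1 CPM, and the third estradiol library was the highest of them. HSP17.6-CII, a cytosolic class II member, had 1693, 2502 and 2346 CPM in heated tips, against 0.793, 0.620 and 2.01 CPM in estradiol-treated tips and 0.0484, 0.255 and 0.217 CPM in mock-treated tips. It changed by 10.89 ± 1.01 over estradiol (adjusted p = 4.01e-05) and by 13.59 ± 1.18 over mock (adjusted p = 5.89e-06), and the third estradiol library again had the highest unheated value. The neighbouring class II gene HSP17.6A-CII, 845 bases away on the same strand of chromosome 5, had 171.4, 311.5 and 465.6 CPM in heated tips, against 0.595, 0.354 and 2.10 CPM in estradiol-treated tips and 0.0968, 0.102 and 0.162 CPM in mock-treated tips, a change of 8.26 ± 1.27 over estradiol (adjusted p = 0.0031). The replicates spread more here than in HSP17.6-CII, in heated and estradiol-treated tips alike.

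The class I genes whose promoters are printed above rose as well. HSP17.6C-CI had 724.3, 995.9 and 1460 CPM in heated tips, against 2.13, 1.82 and 1.92 CPM in estradiol-treated tips and 1.89, 1.43 and 1.90 CPM in mock-treated tips, a change of 9.08 ± 0.98 over estradiol (adjusted p = 0.000152) and 9.25 ± 0.99 over mock (adjusted p = 2.83e-05). HSP17.4-CI had 558.1, 867.9 and 1125 CPM in heated tips, against 1.536, 1.196 and 2.854 CPM in estradiol-treated tips and 0.145, 0.255 and 0.541 CPM in mock-treated tips, a change of 8.83 ± 0.91 over estradiol (adjusted p = 9.9e-05). The heated values of both were lowest in replicate 1 and highest in replicate 3. HSP17.6B-CI stood out by its unheated level: it had 2226, 2484 and 2991 CPM in heated tips, against 17.3, 21.5 and 41.8 CPM in estradiol-treated tips and 11.96, 15.33 and 14.24 CPM in mock-treated tips. Its change was correspondingly smaller, 6.58 ± 0.66 over estradiol (adjusted p = 9.27e-05) and 7.53 ± 0.70 over mock (adjusted p = 6.86e-06). The class I coding regions are similar to one another, as are the class II ones, and the estimated read counts divide shared reads among them, so the split between single members is uncertain.

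Members assigned to mitochondria rose too. HSP23.6 had 172.3, 255.6 and 329.9 CPM in heated tips, against 0.0495, 0.0443 and 1.07 CPM in estradiol-treated tips and 0.0484, 0 and 0 CPM in mock-treated tips. With 1 read in the mock libraries its summed ratio to mock was 14600 (95% interval 2620 to 577000, counting error only), and its fitted change over estradiol was 9.29 ± 1.40 (adjusted p = 0.00275). HSP26.5 had 58.1, 69.9 and 161.4 CPM in heated tips, against 0.0495, 0.0443 and 0.357 CPM in estradiol-treated tips and 0, 0.153 and 0.108 CPM in mock-treated tips, a change of 9.24 ± 1.77 over estradiol (adjusted p = 0.016). In both genes estradiol replicate 3 had the highest unheated value, and for HSP23.6 it was the 1 unheated library above 1 CPM. The plastid member HSP21 was not kept: it had 5.38, 3.36 and 12.4 CPM in heated tips and was at 0 in all 6 unheated libraries, which puts it at least 144-fold higher than in estradiol-treated and at least 130-fold higher than in mock-treated tips, taking 3 counts over the group as the floor, with an adjusted p of 0.184 and 0.117.

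Of the 19 small heat shock protein genes, all of which were tested, 11 were kept higher and 0 lower, with a median log2 change of 6.58 over estradiol and 7.53 over mock. Compared per length, in TPM, the list made up 1.31%, 1.28% and 1.82% of all TPM in heated tips, against 0.00862%, 0.00869% and 0.0192% in estradiol-treated tips and 0.00547%, 0.00679% and 0.00694% in mock-treated tips. The share in the lowest heated library was far above that in the highest unheated one. The highest TPM levels in heated tips were those of HSP17.6B-CI (3458 ± 713 TPM, SD, n = 3), HSP18.2 (3222 ± 663 TPM), HSP17.6-CII (2645 ± 432 TPM) and HSP22 (1904 ± 387 TPM), and these 4 genes held 76.4% of the list's level. HSP17.6B-CI and HSP18.2 did not differ beyond their spread. HSP15.7, a peroxisomal member, closed the order of the kept ones at 13.6 ± 9.55 TPM.

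**Figure D2:**
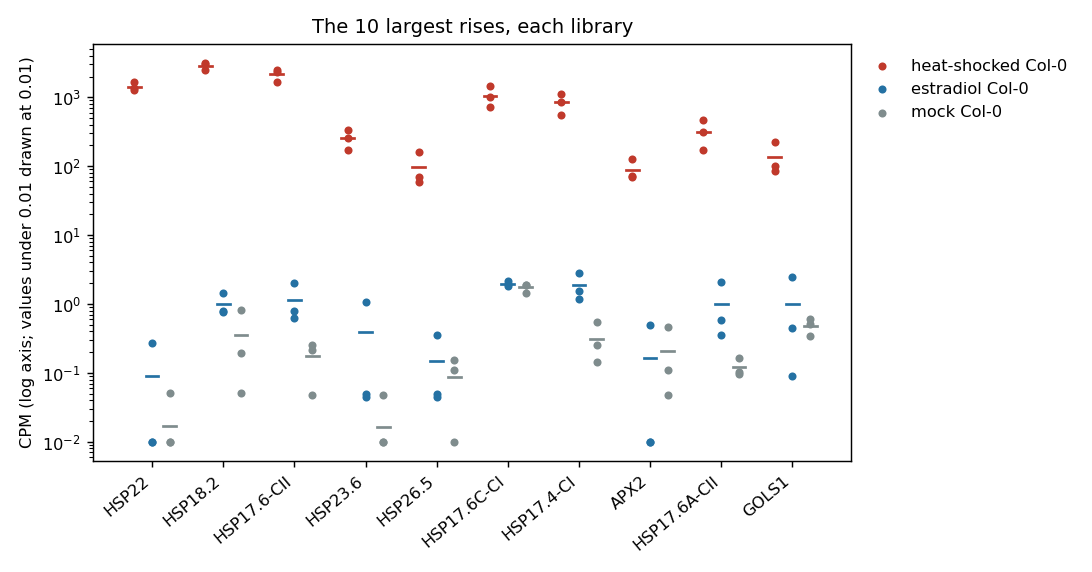
CPM on a log axis in every library of heated, estradiol-treated and mock-treated Col-0 for the 10 named genes with the largest rises; short lines mark the group means and values under 0.01 are drawn at 0.01. The heated libraries lie above all unheated ones, which the choice of these genes required, and the highest estradiol point of most of them is replicate 3.

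The remaining genes of the largest rises were no chaperones. APX2, a cytosolic ascorbate peroxidase that removes hydrogen peroxide, had 72.8, 69.2 and 126.0 CPM in heated tips, against 0, 0 and 0.491 CPM in estradiol-treated tips and 0.0484, 0.459 and 0.108 CPM in mock-treated tips. It changed by 9.0 ± 1.66 over estradiol (adjusted p = 0.0127) and by 8.73 ± 1.64 over mock (adjusted p = 0.00343). GOLS1, which makes galactinol for raffinose synthesis, had 101.2, 85.5 and 223.5 CPM in heated tips, against 0.446, 0.0886 and 2.498 CPM in estradiol-treated tips and 0.339, 0.509 and 0.596 CPM in mock-treated tips, a change of 7.06 ± 1.48 over estradiol (adjusted p = 0.0252). In both genes the highest estradiol value was that of replicate 3. APX2 was the 1 kept gene among 12 tested genes of the list of reactive oxygen scavenging and signalling. That list does not hold the peroxiredoxin PRXQ, given below, which was also kept higher. GOLS1 was the 1 kept gene among 3 tested galactinol and raffinose genes.

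The larger chaperones and their helpers showed a mixed picture, with 2 of 25 tested HSP100, HSP90, HSP70 and HSP60 genes kept higher and 0 lower (median log2 change 0.67 over estradiol and 0.81 over mock). Both kept genes of this list act in mitochondria. The chaperonins HSP60-3A of mitochondria and Cpn60beta2 of plastids lie outside the list and were also kept higher. MTHSC70-2, the mitochondrial HSP70, had 800.1, 686.5 and 783.8 CPM in heated tips, against 147.6, 168.1 and 171.5 CPM in estradiol-treated tips and 173.2, 185.1 and 180.1 CPM in mock-treated tips, a change of 2.22 ± 0.43 over estradiol (adjusted p = 0.0163) and 2.08 ± 0.42 over mock (adjusted p = 0.00612). HSP60, a mitochondrial chaperonin, had 1285, 1109 and 1182 CPM in heated tips, against 511.4, 490.0 and 509.7 CPM in estradiol-treated tips and 535.6, 528.0 and 521.2 CPM in mock-treated tips. Its change was 1.24 ± 0.25 over estradiol (adjusted p = 0.0217), with replicates that differed little in any group.

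Several well-known heat shock chaperones had higher values in heated tips but were not kept. HSP101, the disaggregase needed for acquired thermotolerance, had 34.5, 23.4 and 81.6 CPM in heated tips, against 11.84, 9.831 and 16.95 CPM in estradiol-treated tips and 7.46, 7.69 and 8.72 CPM in mock-treated tips (adjusted p = 0.273 over estradiol and 0.077 over mock). HSP70-4, a heat-inducible cytosolic HSP70, had 577.6, 732.4 and 1259 CPM in heated tips, against 39.3, 22.5 and 116.6 CPM in estradiol-treated tips and 14.72, 21.86 and 28.04 CPM in mock-treated tips (adjusted p = 0.0796 and 0.00849). In both genes all heated libraries were above all unheated ones. When only the 9 Col-0 libraries were fitted, which lets the spread come from these groups alone, both passed the test against both groups, as did HSP90.1, the inducible cytosolic HSP90, and the count of this list became 11. Of the 25 tested genes of this list, 16 had all heated libraries above all unheated ones, against 7.52% of all tested genes. HSC70-1, a constitutive gene, did not separate. It had 2758, 2562 and 2694 CPM in heated tips. Estradiol-treated tips had 2705, 2503 and 2761 CPM and mock-treated tips 2963, 2338 and 2489 CPM. HSP90.2 likewise overlapped in its values, with 652.7, 735.2 and 906.7 CPM in heated tips, against 533.1, 525.6 and 723.1 CPM in estradiol-treated tips and 521.8, 585.9 and 674.6 CPM in mock-treated tips.

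Of 17 tested co-chaperones, 3 were kept higher, ROF2, HOP3 and HSA32. ROF2, a peptidyl-prolyl isomerase that binds HSP90, had 705.3, 880.0 and 1274 CPM in heated tips, against 31.8, 37.1 and 137.9 CPM in estradiol-treated tips and 24.3, 27.5 and 25.9 CPM in mock-treated tips (change over estradiol 3.79, adjusted p = 0.0442). HSA32, which prolongs acquired thermotolerance, had 146.4, 212.2 and 223.8 CPM in heated tips, against 3.96, 4.52 and 6.11 CPM in estradiol-treated tips and 3.29, 2.19 and 2.44 CPM in mock-treated tips, a change of 5.32 ± 0.80 over estradiol (adjusted p = 0.00275). HOP3 had 342.4, 298.0 and 437.8 CPM in heated tips, against 50.0, 46.2 and 77.1 CPM in estradiol-treated tips and 49.8, 36.6 and 43.9 CPM in mock-treated tips, a change of 2.64 ± 0.59 over estradiol (adjusted p = 0.0342). In each of the 3 genes estradiol replicate 3 had the highest unheated value, in ROF2 well above the other unheated libraries. HSP17.4-CI, GOLS1 and HOP3 each share bases with a gene on the opposite strand, and HSA32 shares 113 with one on its own, and without strand information for the counting such reads cannot be told apart.

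**Figure D3:**
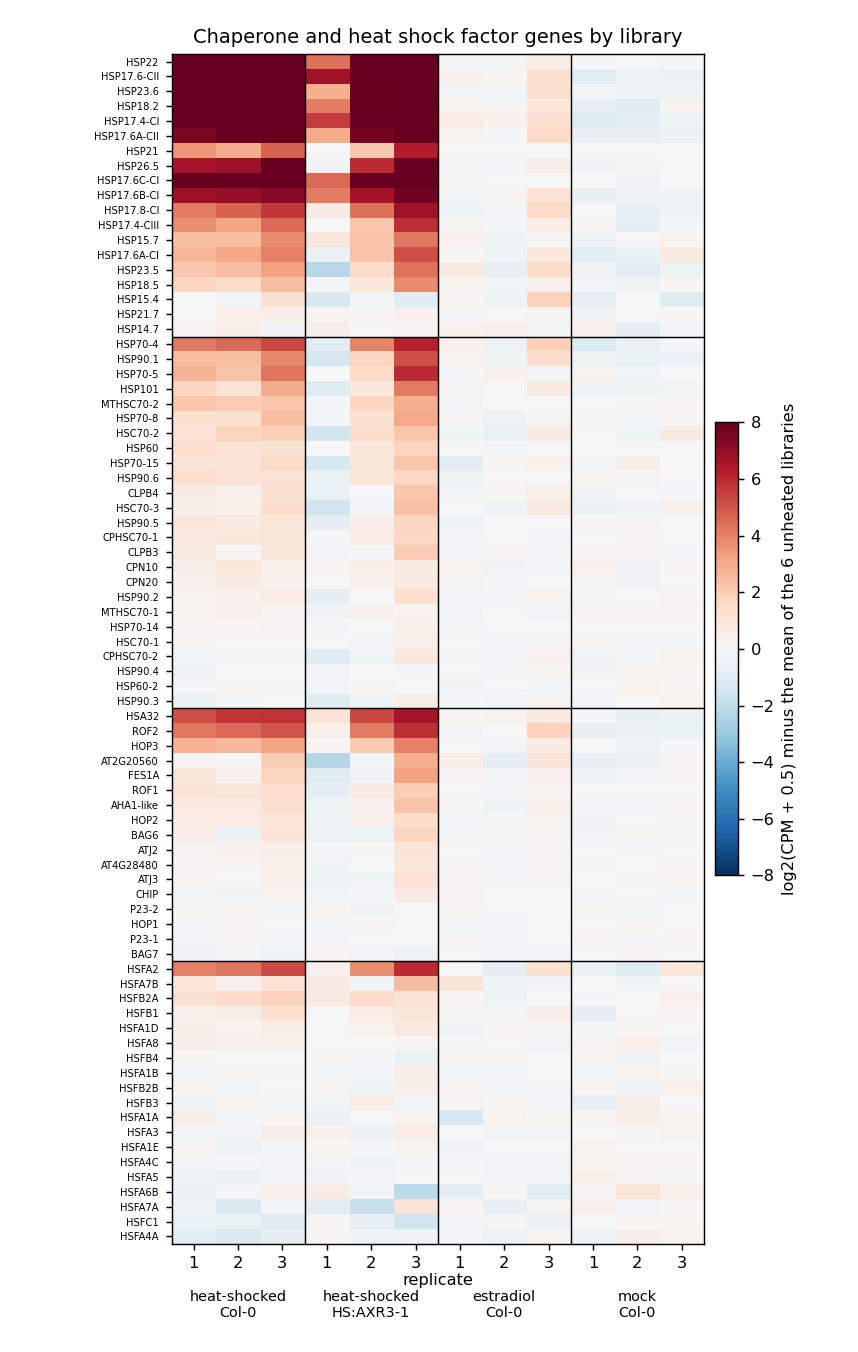
Level of every tested small heat shock protein, larger chaperone, co-chaperone and heat shock factor gene (4 blocks from top to bottom) in each library of heated Col-0, heated HS:AXR3-1, estradiol-treated Col-0 and mock-treated Col-0, as log2(CPM + 0.5) minus the gene's mean over the 6 unheated libraries, with the colour scale ending at 8 in either direction. Heated Col-0 is darkest red among the small heat shock proteins, and HS:AXR3-1 replicate 1 is pale against its group.

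Few genes of the heat shock factors themselves were kept. Of 19 tested heat shock transcription factors 1 was kept, HSFB2A, a class B factor known as a repressor, and the list's median change was 0.16 over estradiol and -0.13 over mock. HSFB2A had 16.8, 21.1 and 26.6 CPM in heated tips, against 7.93, 5.45 and 6.82 CPM in estradiol-treated tips and 6.10, 7.34 and 8.99 CPM in mock-treated tips, a change of 1.67 ± 0.24 over estradiol (adjusted p = 0.0021) and 1.52 ± 0.24 over mock (adjusted p = 0.000968). HSFA2, the heat-induced activator, had 30.1, 36.3 and 72.3 CPM in heated tips, against 1.39, 0.620 and 3.97 CPM in estradiol-treated tips and 0.823, 0.459 and 3.19 CPM in mock-treated tips, and passed against mock (adjusted p = 0.0251) but not against estradiol (adjusted p = 0.0784). HSFA1A, one of the activators present before stress, had overlapping values of 7.60, 4.86 and 5.93 CPM in heated tips, against 2.08, 6.55 and 5.71 CPM in estradiol-treated tips and 5.86, 7.90 and 6.66 CPM in mock-treated tips. Of 8 other tested heat regulators 0 were kept. Among them DREB2A, a drought and heat factor, was lower than in mock alone (change -1.14, adjusted p = 0.0125), with 30.87, 24.01 and 22.78 CPM in heated tips, against 39.58, 28.96 and 25.29 CPM in estradiol-treated tips and 57.0, 66.3 and 47.4 CPM in mock-treated tips.

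Genes of mitochondrial and plastid proteins were among those kept higher. Apart from UPOX, those given here are examples chosen after their values were seen. The number of such genes among all tested was not counted. Others were kept lower, among them NDA2 and OASC of mitochondria and PGLCT and J11 of plastids. UPOX, a nuclear gene induced by oxidative stress in mitochondria, had 30.6, 89.6 and 39.0 CPM in heated tips, against 4.31, 2.92 and 3.39 CPM in estradiol-treated tips and 2.91, 5.04 and 4.49 CPM in mock-treated tips, a change of 3.91 ± 0.57 over estradiol (adjusted p = 0.00224). It was the 1 kept gene of 6 tested mitochondrial stress genes. AAC3, an ADP/ATP carrier, had 23.7, 24.6 and 33.2 CPM in heated tips, against 5.80, 5.49 and 4.50 CPM in estradiol-treated tips and 4.019, 5.502 and 3.952 CPM in mock-treated tips. MGE1, a GrpE-type helper of mitochondrial HSP70, had 52.4, 74.8 and 58.8 CPM in heated tips, against 33.7, 37.6 and 34.5 CPM in estradiol-treated tips and 31.2, 37.2 and 34.8 CPM in mock-treated tips, a change of 0.81 over estradiol (adjusted p = 0.0371).

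Of the genes for plastid proteins, Cpn60beta2, a subunit of the plastid chaperonin, had 699.2, 703.1 and 684.7 CPM in heated tips, against 135.0, 154.1 and 178.8 CPM in estradiol-treated tips and 174.2, 152.1 and 154.3 CPM in mock-treated tips (change over estradiol 2.16, adjusted p = 0.0177). RCA, the rubisco activase, had 50.5, 50.9 and 40.7 CPM in heated tips, against 10.45, 15.72 and 11.46 CPM in estradiol-treated tips and 11.9, 13.4 and 15.9 CPM in mock-treated tips (change over estradiol 1.91, adjusted p = 0.0073). The green tissue markers given above overlapped between the groups, and 0 of the 5 tested was called in either contrast. Other genes of photosynthesis or chlorophyll synthesis, outside that marker list, were kept higher like RCA. Examples, also chosen after their values were seen, are PSBO2, PSBY, FD1, CRD1, POR C and TROL. PRXQ, a plastid peroxiredoxin, had 37.62, 26.72 and 23.39 CPM in heated tips, against 10.25, 11.29 and 8.25 CPM in estradiol-treated tips and 10.55, 9.37 and 10.5 CPM in mock-treated tips (change over estradiol 1.56, adjusted p = 0.0342).

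AT2G21130, AT5G12110 and PFK3 are further examples chosen after their values were seen. AT2G21130, a cyclophilin-type peptidyl-prolyl isomerase, had 56.7, 82.1 and 73.5 CPM in heated tips, against 12.98, 14.04 and 13.78 CPM in estradiol-treated tips and 10.1, 9.37 and 11.0 CPM in mock-treated tips (change over estradiol 2.38, adjusted p = 0.000491). AT5G12110, annotated as an elongation factor 1-beta, had 188.8, 266.3 and 235.1 CPM in heated tips, against 16.89, 13.86 and 17.79 CPM in estradiol-treated tips and 13.2, 12.1 and 14.5 CPM in mock-treated tips (change over estradiol 3.83, adjusted p = 0.00528), and it shares 1221 bases with a gene on the opposite strand. PFK3, a phosphofructokinase of glycolysis, had 46.5, 33.9 and 46.9 CPM in heated tips, against 6.589, 7.13 and 6.199 CPM in estradiol-treated tips and 6.05, 6.62 and 4.17 CPM in mock-treated tips (change over estradiol 2.67, adjusted p = 0.027). Of the regulatory ATPase subunits of the proteasome, RPT5B and AT5G20000 were kept higher, with changes over estradiol of 0.74 and 1.00, while of the 18 tested genes of the ubiquitin, proteasome and autophagy list 0 were kept. The gene next to HSP18.2, VIP2, which ends 240 bases upstream of it on the same strand, also rose, with 91.7, 62.2 and 65.2 CPM in heated tips, against 28.0, 30.8 and 34.3 CPM in estradiol-treated tips and 29.5, 38.1 and 37.0 CPM in mock-treated tips.

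Single members of splicing, growth and hormone lists were kept. SR30, a serine-arginine-rich splicing factor, had 338.7, 350.7 and 378.7 CPM in heated tips, against 89.4, 93.4 and 127.2 CPM in estradiol-treated tips and 77.7, 74.2 and 89.6 CPM in mock-treated tips, a change of 1.78 ± 0.31 over estradiol (adjusted p = 0.00878) and the 1 kept gene among 20 tested SR splicing factors. GA3OX1, which makes active gibberellin, had 25.6, 22.0 and 30.8 CPM in heated tips, against 10.1, 14.1 and 13.3 CPM in estradiol-treated tips and 12.6, 15.3 and 9.58 CPM in mock-treated tips, a change of 1.06 ± 0.25 over estradiol (adjusted p = 0.0442). GA20OX3, of the preceding step of gibberellin synthesis, went the other way, with 2.596, 3.572 and 3.806 CPM in heated tips, against 7.73, 9.65 and 10.2 CPM in estradiol-treated tips and 7.99, 10.9 and 7.74 CPM in mock-treated tips (change over estradiol -1.47, adjusted p = 0.0217). It is not part of the 14 tested gibberellin genes, of which GA3OX1 alone was kept.

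EXPA14, a wall-loosening expansin and the 1 kept of 10 tested, had 164.6, 145.7 and 140.7 CPM in heated tips, against 108.4, 85.2 and 85.0 CPM in estradiol-treated tips and 58.3, 60.6 and 54.6 CPM in mock-treated tips, a change of 0.69 ± 0.15 over estradiol (adjusted p = 0.0252). It was the 1 kept higher gene that was also called between the unheated groups, where estradiol-treated tips exceeded mock-treated tips by 0.68 (adjusted p = 0.026). IAA7, an auxin response repressor and the 1 kept of 17 tested early auxin genes, had 124.2, 135.4 and 139.1 CPM in heated tips, against 105.0, 103.8 and 106.0 CPM in estradiol-treated tips and 103.4, 97.3 and 111.7 CPM in mock-treated tips. Its change of 0.34 ± 0.08 over estradiol (adjusted p = 0.042) was the smallest of the genes kept higher. Its call was lost in both contrasts when only the 9 Col-0 libraries were fitted (adjusted p = 0.105 over estradiol and 0.0565 over mock).

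The heated tips were also lower in a set of smaller changes. MIOX2, a myo-inositol oxygenase that feeds sugar acids into the cell wall, had 17.37, 5.766 and 8.675 CPM in heated tips, against 96.4, 26.53 and 60.52 CPM in estradiol-treated tips and 139.3, 129.1 and 69.7 CPM in mock-treated tips. Its change was -2.53 ± 0.54 over estradiol (adjusted p = 0.0262) and -3.41 ± 0.55 over mock (adjusted p = 0.00115). Its values varied widely within each group. AT1G13480, a protein of unknown function with a DUF1262 domain, had 0.897, 1.33 and 0.951 CPM in heated tips, against 6.39, 6.69 and 3.61 CPM in estradiol-treated tips and 13.1, 16.5 and 12.8 CPM in mock-treated tips (change over estradiol -2.38 ± 0.34, adjusted p = 0.00187). It was also lower in estradiol-treated than in mock-treated tips (-1.35, adjusted p = 0.0347), so its 3 groups stood in 3 steps.

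Other large falls included regulators and receptor-like proteins. AT1G17147, a VQ-motif protein, a family known to bind WRKY factors, had 1.46, 2.80 and 2.80 CPM in heated tips, against 11.6, 10.5 and 11.2 CPM in estradiol-treated tips and 13.1, 12.8 and 15.5 CPM in mock-treated tips, a change of -2.24 ± 0.39 over estradiol (adjusted p = 0.00851). AT5G48540, related to receptor-like kinases, had 3.12, 6.76 and 6.38 CPM in heated tips, against 24.97, 21.04 and 22.17 CPM in estradiol-treated tips and 21.8, 34.2 and 32.3 CPM in mock-treated tips, a change of -2.07 ± 0.24 over estradiol (adjusted p = 0.000314). CEJ1, an AP2-type factor, had 2.502, 4.389 and 5.597 CPM in heated tips, against 18.1, 14.9 and 16.3 CPM in estradiol-treated tips and 20.5, 33.8 and 25.5 CPM in mock-treated tips, a change of -1.99 ± 0.34 over estradiol (adjusted p = 0.0073). The unheated groups overlapped in AT5G48540. In AT1G17147 and CEJ1 the estradiol-treated tips lay below the mock-treated tips without a call (changes -0.31 and -0.69, adjusted p = 0.976 and 0.587). AT1G71520, of the same factor family, had 0.567, 1.64 and 2.13 CPM in heated tips, against 5.30, 4.96 and 5.49 CPM in estradiol-treated tips and 15.35, 14.37 and 11.42 CPM in mock-treated tips, a change of -1.87 ± 0.35 over estradiol (adjusted p = 0.0153). WAKL4, a wall-associated kinase-like protein, had 1.18, 2.496 and 1.119 CPM in heated tips, against 6.84, 4.52 and 5.49 CPM in estradiol-treated tips and 10.8, 12.4 and 12.1 CPM in mock-treated tips, a change of -1.79 ± 0.28 over estradiol (adjusted p = 0.00371). In this last pair the estradiol-treated tips also held a middle position, with larger changes from mock of -1.38 and -1.07 that were not called.

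NUDT8, a nudix hydrolase, had 1.28, 1.64 and 1.90 CPM in heated tips, against 6.79, 6.29 and 6.11 CPM in estradiol-treated tips and 11.9, 6.78 and 6.77 CPM in mock-treated tips (change over estradiol -1.99 ± 0.47, adjusted p = 0.0424). AT3G26470, with an RPW8 domain known from mildew resistance, had 3.92, 8.00 and 7.16 CPM in heated tips, against 27.8, 26.4 and 21.2 CPM in estradiol-treated tips and 12.4, 28.9 and 25.8 CPM in mock-treated tips (change over estradiol -1.98 ± 0.40, adjusted p = 0.0218); it overlaps a gene on the opposite strand. In both genes a single mock library stood away from the other 2. Of lower expressed genes with larger falls, WRKY30, a stress-responsive factor, had 0, 0.129 and 0.168 CPM in heated tips, against 1.49, 1.46 and 0.892 CPM in estradiol-treated tips and 4.55, 7.64 and 8.55 CPM in mock-treated tips. HAK5, the high-affinity potassium transporter of roots, had 0, 0.473 and 0.448 CPM in heated tips, against 3.17, 3.14 and 3.17 CPM in estradiol-treated tips and 0.968, 6.52 and 1.79 CPM in mock-treated tips. Both genes are outside the level minimum of 5 CPM for naming and are given as examples chosen after their values were seen.

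**Figure D4:**
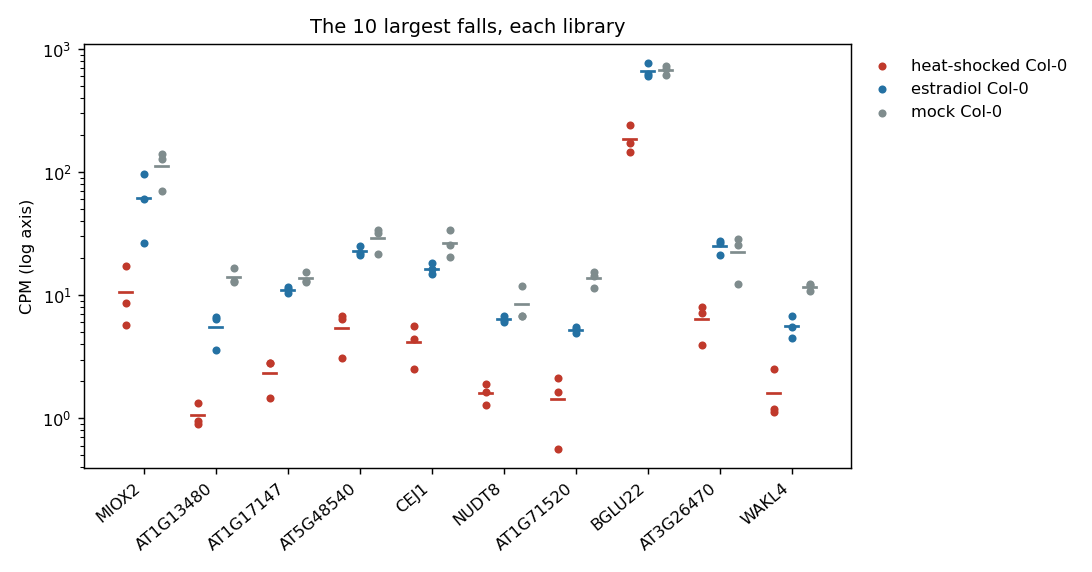
CPM on a log axis in every library of heated, estradiol-treated and mock-treated Col-0 for the 10 named genes with the largest falls, with short lines at the group means. The heated libraries are below all unheated ones, which the choice of these genes required, and in several genes estradiol-treated tips lie between heated and mock-treated ones.

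BGLU21 and BGLU22, both kept lower, are beta-glucosidases, which release compounds stored as glucosides. BGLU22 had 145.7, 242.0 and 174.1 CPM in heated tips, against 600.2, 627.6 and 767.7 CPM in estradiol-treated tips and 689.3, 620.4 and 731.1 CPM in mock-treated tips, a change of -1.83 ± 0.41 over estradiol (adjusted p = 0.0343) and -1.86 ± 0.41 over mock (adjusted p = 0.00999). Its neighbour BGLU21, 3345 bases away, had 256.8, 497.3 and 348.5 CPM in heated tips, against 1140, 1046 and 1423 CPM in estradiol-treated tips and 1184, 1084 and 1277 CPM in mock-treated tips (change over estradiol -1.71, adjusted p = 0.0461). Both groups of unheated tips were at one level, and the second heated library was the highest of the heated ones in both genes. The 2 are close copies among which shared reads are divided. BGLU34 had 63.0, 60.4 and 68.4 CPM in heated tips, against 138.6, 153.0 and 157.0 CPM in estradiol-treated tips and 132.2, 206.1 and 203.9 CPM in mock-treated tips, and BGLU35 was lower by a similar amount (changes over estradiol -1.23 and -1.22).

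Further examples of kept lower genes, chosen after their values were seen, are FQR1, CYP81D11 and J11. FQR1, a quinone reductase, had 88.4, 108.0 and 97.3 CPM in heated tips, against 290.2, 290.2 and 241.7 CPM in estradiol-treated tips and 190.0, 227.4 and 186.1 CPM in mock-treated tips (changes -1.49 over estradiol and -1.04 over mock, adjusted p = 0.00528 and 0.0135). CYP81D11, a cytochrome P450, had 111.5, 125.1 and 133.9 CPM in heated tips, against 310.0, 269.0 and 263.7 CPM in estradiol-treated tips and 224.2, 278.2 and 256.4 CPM in mock-treated tips (change over estradiol -1.19, adjusted p = 0.00136). J11, a DnaJ-domain protein of plastids, was lower rather than higher, with 16.4, 8.91 and 21.4 CPM in heated tips, against 43.9, 38.4 and 61.8 CPM in estradiol-treated tips and 66.2, 88.4 and 41.4 CPM in mock-treated tips (change over estradiol -1.63, adjusted p = 0.0163).

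Of 24 gene lists other than cell type markers, with 365 members of which 353 were tested, 11 held a kept gene, and all 24 kept members were higher. Of 20 tested genes of folding in the endoplasmic reticulum 0 were kept (median 0.10 over mock and -0.04 over estradiol), although HSP22 resides there. Of 19 tested cytosolic ribosomal proteins and 21 ribosome biogenesis genes 0 were kept. The replicative histones H3.1 and H4 had 8 of 12 genes called lower against mock and 0 against estradiol, with a median change of -0.74 over mock and -0.64 over estradiol, and their summed level was 1336, 1599 and 1424 TPM in heated tips, against 2322, 2175 and 1995 TPM in estradiol-treated tips and 2274, 2451 and 2480 TPM in mock-treated tips. The 3 heated sums lay below all 6 unheated ones, yet no single histone gene was kept. Of them 4 were kept lower without HS:AXR3-1 replicate 1, 4 without replicate 3, 0 without replicate 2, and 6 without the whole HS:AXR3-1 group. Of 23 tested genes of G2 and mitosis 3 were called lower against mock and 0 were kept (medians -0.39 over estradiol and -0.61 over mock), and of 15 S phase genes 0 were called.

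The touch, wounding and jasmonate list differed between the unheated groups. Its median change was -1.57 over mock and -0.09 over estradiol, and 5 of 15 genes were called lower against mock, 0 against estradiol and 0 kept. The estradiol-treated tips themselves were lower than the mock-treated tips on this list by a median of -1.56, with 3 genes called. Its summed level was 105, 136.6 and 198.1 TPM in heated tips, against 144.4, 130.1 and 164.2 TPM in estradiol-treated tips and 286.6, 530.2 and 383.1 TPM in mock-treated tips. The mock-treated tips stood apart from both other groups, which overlapped.

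Of the 31 genes named by rank or list, 15 kept their call in both contrasts with each library of the fit's comparison left out in turn: HSP22, HSP18.2, HSP17.6-CII, HSP17.6A-CII, HSP17.6B-CI, HSP17.6C-CI, HSP17.4-CI, HSP23.6, HSA32, UPOX and HSFB2A among the rises and AT1G13480, AT5G48540, CEJ1 and WAKL4 among the falls. The other 16 lost the call over estradiol under at least 1 omission, and 4 of them also the call over mock. None changed direction, which the lack of overlap between heated and unheated libraries made hardly possible.

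The kept genes were also looked at in another pair of groups, which shares no library with the 9 described above. These were root tips of HS:AXR3-1, a line with the stabilised auxin response repressor AXR3-1 behind a heat shock promoter, heated in the same way, and root tips of XVE:AXR3-1-RFP, a line with the repressor behind an estradiol-inducible promoter, given 5 µM estradiol for 120 min, with 3 libraries each. Both groups therefore carry induced AXR3-1, and heat, line and inducer cannot be told apart between them. In HS:AXR3-1 over XVE:AXR3-1-RFP tips, 379 genes were higher (1.91%) and 353 lower (1.78%). Of the 138 genes kept higher in heated Col-0, 93 (67.4%) were called higher, 137 had a change above 0, and the median log2 change was 1.27. Of the 105 kept lower, 64 (61%) were called lower, 104 had a change below 0, and the median was -0.85. No kept gene was called in the opposite direction. The libraries of this pair also entered the scaling, filter and spread of the fit that chose the kept genes. These shares are therefore not independent of that choice. The test pools its spread over all 21 libraries: with these 6 libraries fitted alone 7 and 11 of the kept genes were called, and leaving out a library other than HS:AXR3-1 replicate 1 gave 53 to 76 and 47 to 57. HSP22 changed by 14.46 (adjusted p = 0.000412), HSP60 by 1.23 (adjusted p = 0.00933) and MIOX2 by -2.71 (adjusted p = 0.00719). HSFB2A (0.85, adjusted p = 0.0578), EXPA14 (0.44, adjusted p = 0.104) and BGLU22 (-1.08, adjusted p = 0.163) were not called there.

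The library labelled HS:AXR3-1 replicate 1 stood apart from the others labelled as heated. Beyond the sum given above, its HSP22 was at 11.0 CPM, against 1048 and 2781 CPM in the other replicates. Its BGLU22 was at 783.0 CPM, near the unheated level, against 335.1 and 118.6 CPM. Both that sum and its HSP22 still lay above all estradiol-treated and mock-treated Col-0 libraries. Not every named gene set it apart: WAKL4 and EXPA14 were close to the other replicates. Without it, 418 genes were kept higher and 282 lower in Col-0, which include all 138 and all 105. Leaving out replicate 3 of that line instead, the library with the highest level of small heat shock proteins, gave 385 and 285, again with all 138 and 105 among them. Leaving out replicate 2 gave 136 and 97, and leaving out the whole group gave 511 and 383. In the fit of the 9 Col-0 libraries alone, 324 genes were kept higher (1.68% of 19295 tested) and 190 lower (0.985%), of which 125 and 86 were also kept with all 21 libraries. Among list members that fit kept 15 small heat shock proteins, HSFA2 and CCA1, the 1 of 11 clock genes kept there. It also kept ZAT12, a zinc finger factor of the oxidative stress response, as lower (change -1.78 over estradiol, adjusted p = 0.0164). It dropped IAA7, so that 0 of 17 early auxin genes were kept.

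In a few genes the shares of the transcripts also differed between heated and unheated tips. Of 7810 genes with at least 2 expressed transcripts, the share of at least 1 transcript differed from mock in 42 (0.538%) and from estradiol in 32 (0.410%), by limma's transcript usage test with Simes combination and an adjusted p under 0.05. A shift in the same direction against both was found in 7 genes (0.0896%), which were kept. In 6 of them the same transcript led in both contrasts. In the seventh, ZYP1a, which has 2 expressed transcripts whose shares mirror each other, transcript 1 was the higher one in heated tips against both. SR34, another serine-arginine-rich splicing factor, had 48.8%, 54.5% and 48.4% of its reads on transcript 1 in heated tips, against 82.8%, 71.8% and 71.6% in estradiol-treated tips and 86.5%, 73.0% and 76.9% in mock-treated tips (adjusted p = 0.0103 and 0.00285). Its transcript 2 took 20.18%, 12.85% and 14.32% in heated tips, against 3.32%, 2.09% and 5.67% in estradiol-treated tips and 1.88%, 5.05% and 5.83% in mock-treated tips, and transcript 3 moved the same way. The heated libraries were below all unheated ones for transcript 1 and above them for transcript 2. In HS:AXR3-1 tips transcript 1 held 77.6%, 54.0% and 52.1%, the first of these in the library that stood apart.

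**Figure D5:**
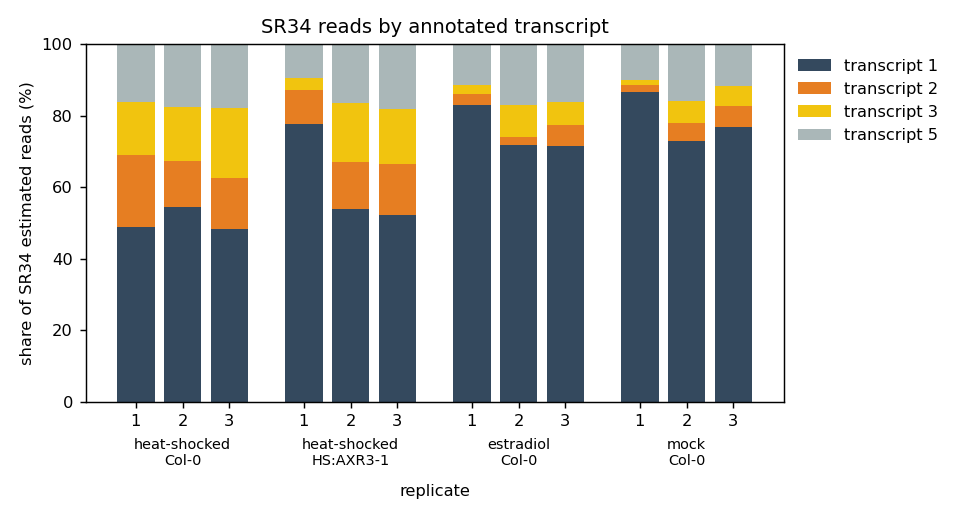
Share of SR34 reads on each transcript, in percent, as stacked bars for every library of heated Col-0, heated HS:AXR3-1, estradiol-treated Col-0 and mock-treated Col-0. Transcript 1 holds 48.4% to 54.5% in heated Col-0 and 71.6% to 86.5% in the unheated libraries.

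CPR1, an F-box protein that restrains immune receptors, had 37.6%, 25.3% and 30.2% of its reads on transcript 3 in heated tips, against 12.4%, 12.9% and 15.3% in estradiol-treated tips and 9.33%, 8.66% and 10.9% in mock-treated tips (adjusted p = 0.0226 and 0.00364). AT1G12650 had 29.8%, 11.0% and 24.6% of its reads on transcript 1 in heated tips, and none was estimated there in any of the 6 unheated libraries (adjusted p = 0.0187 and 0.0156). AT5G55790, itself kept higher, had none of its reads on transcript 1 in heated tips, against 26.32%, 15.65% and 14.55% in estradiol-treated tips and 47.6%, 9.63% and 26.6% in mock-treated tips (adjusted p = 0.000477 and 0.00011). In each the heated and unheated shares did not overlap. AT5G49870 had most of its reads on transcript 2 when heated, which held 85.7%, 76.5% and 100% in heated tips, against 0%, 4.71% and 0% in estradiol-treated tips and 0% in every mock library, on 78, 26 and 39 reads of that transcript in the heated libraries. Shares near 0 or 100% rest on how the estimation assigns reads that several transcripts share, and with transcripts limited to a mean of at least 5 CPM 1 gene was kept. SR30, whose total rose, did not pass the usage test (adjusted p = 0.0949 and 0.536), with 84.1%, 88.3% and 82.4% on transcript 1 in heated tips, against 60.1%, 64.3% and 64.0% in estradiol-treated tips and 79.3%, 69.0% and 69.3% in mock-treated tips.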

How the data were processed

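RNA-seq libraries of root tips were analysed from the deposited output of Salmon 1.3.0 on TAIR10 transcripts, per the submitters' processing notes. No source used here states the library layout, the strand setting or a bias correction. Per the file headers, each file as deposited lists, for 48268 transcripts, the estimated count of reads that the quantifier assigned, with reads shared by transcripts divided among them, the lengths, and TPM, which divide by effective length.

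Estimated counts were summed by locus and rounded. The main test was edgeR 4.0.16 (R 4.3.3), a quasi-likelihood fit with 1 coefficient per group over all 21 libraries (14 residual degrees of freedom), TMM scaling and edgeR's expression filter, with Benjamini-Hochberg adjustment over 19809 genes; standard errors are the log2 change over the root of F. TPM were used to compare levels per length. Transcript usage used voom and limma 3.58.1. Counts of 3 served as the floor where a group had no read, and intervals are exact binomial at 95%. Methods were tested on simulated data. Coordinates come from the RefSeq annotation of TAIR10.1, in which 99.59% of the transcripts matched by name had the same spliced length as in the files.

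Named genes were up to 10 per direction with the largest smaller log2 change, a mean of at least 5 CPM and no overlap of heated with unheated libraries, plus up to 2 kept members per list and direction with the smallest larger adjusted p, and 5 genes of transcript usage. Other genes with values are examples chosen after their values were seen. The rule, the members and the lists were chosen with earlier results of these data known. Alternatives were DESeq2 1.42.0, other scalings, filters, thresholds and sample sets, a replicate block and leaving out each library; leaving out libraries or groups outside the 9 was chosen after seeing the data in the Col-0 comparisons. Of the kept genes, 74 overlap another annotated gene.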

Additional observations from a re-analysis of the deposited data

Results flagged for a closer look

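Transcripts encoded by the mitochondrial genome, which are not described above, exceeded their unheated level in some heated libraries. They summed to 392.9 CPM in heated Col-0 replicate 1, 30.68 CPM in replicate 2 and 492.7 CPM in replicate 3, against at most 57.86 CPM in any unheated library of the series. In heated HS:AXR3-1 they summed to 19.27, 17.85 and 1346 CPM. The replicates of each heated group thus disagreed, and of 56 such loci tested 2 were called higher against mock, 0 against estradiol and 0 were kept.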

How the results depend on the processing

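The number of kept genes depended strongly on the settings. Of 1178 values of the 31 named genes under alternatives, 102 lost the call, 82 of them with a library left out, and 0 reversed. In these genes the heated libraries did not overlap the unheated ones. A reversal was thus hardly possible, and nothing is read from its absence. Kept genes, higher and lower, numbered 372 and 301 with DESeq2, 324 and 190 with the 9 Col-0 libraries, 29 and 17 at an adjusted p under 0.01, 778 and 698 in 1 contrast against the mean of both unheated groups, 511 and 383 without the HS:AXR3-1 group, and 29 to 418 and 24 to 285 without 1 of the 21 libraries. The highest counts came without HS:AXR3-1 replicate 1 (418 and 282) and without HS:AXR3-1 replicate 3 (385 and 285). Requiring at least 2-fold in both contrasts left 92 and 52. All 138 and 105 genes were also kept with DESeq2, and the cause of the differences was not tested.

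Over estradiol the counts were 503 and 457 with DESeq2, 368 and 260 with the 9 libraries, 32 and 26 at the stricter threshold, 621 and 529 without the HS:AXR3-1 group, and 31 to 503 and 33 to 402 without 1 library. Over mock they were 1033 and 1163 with DESeq2, 194 and 356 at the stricter threshold, 1190 and 1258 without that group, and 239 to 1062 and 481 to 1176 without 1 library. For estradiol over mock they were 110 and 299 with DESeq2, 5 and 81 at the stricter threshold, and 7 to 50 and 84 to 192 without 1 library.

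For HS:AXR3-1 over XVE:AXR3-1-RFP they were 711 and 596 with DESeq2, 11 and 31 with only these 6 libraries, 146 and 150 at the stricter threshold, and 161 to 875 and 183 to 627 without 1 library. Of the kept genes, 7 higher and 11 lower were called there with only the 6 libraries, 48 and 41 at the stricter threshold, and 53 to 124 and 47 to 88 without 1 of the 6. Genes kept for transcript usage numbered 1 at the stricter threshold, 1 with transcripts of at least 5 CPM, 17 without the HS:AXR3-1 group, 3 with the 9 libraries and 7 to 16 without 1 of the 9 libraries.

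Replicate numbers are shared by the groups. Correlations of same-numbered libraries' deviations from their group mean were 0.21 to 0.58 for replicates 1 and 3. For replicate 2 they were -0.07 to 0.04, and between differently numbered libraries -0.62 to 0.39. Libraries numbered 1 and those numbered 3 thus deviated together in part. The main fit left the numbers out because not each same-numbered pair was above 0.1, so it does not account for this shared deviation. With the replicate block 385 and 348 genes were kept, which include all 138 and 105, with 500 and 528 called over estradiol, 1223 and 1336 over mock, 86 and 281 for estradiol over mock, 690 and 681 for HS:AXR3-1 over XVE:AXR3-1-RFP, and 30 for transcript usage.

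Depth limits the lowest genes: where an unheated group has 0 reads, only a lower limit of the fold can be given.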
